A study of Mus musculus with 10 samples.

Results

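The members of the Nodal, bone morphogenetic protein (BMP) and transforming growth factor-beta (TGF-beta) pathway were compared between mouse fibroblasts and lines reprogrammed from such cells. They are the genes whose symbols match those of the ligands (Nodal, Gdf, Inhb, Tgfb and Bmp genes), their receptors and co-receptors, the Smads, the antagonists Lefty1, Lefty2, Cer1, Nog and Fst, and the Id genes Id1 to Id4. The rule found 57 of the 18901 genes in the deposited table, and 54 of them passed a filter on low values (at least 10 in at least 2 libraries). Acvr1c, Bmp10 and Bmp15 did not pass, with at most 11.5 in any library. The symbol pattern also took in Bmp1, a metalloprotease and not a ligand of the family.

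RNA was sequenced from 5 mouse lines with 2 libraries each, all labelled as a cross of mf1 and 129. Oct4-GFP MEF, fibroblasts of mouse embryos with a fluorescent reporter of Oct4, were sampled at passages 2 and 4 in DMEM with serum. From such fibroblasts, infected with retroviruses for Oct4, Sox2, Klf4 and c-Myc, came 4 lines: pre-iPS cells, 'control' iPS cells, and clones 1 and 2 of 'rNetrin-1-derived' iPS cells, for which recombinant Netrin-1, a secreted guidance cue, was added during reprogramming. They were grown in a KSR medium with LIF and sampled at passages 5 and 25, so the medium and the cell type cannot be told apart where MEF are compared. Pre-iPS cells are colonies that stopped before switching on the Oct4 reporter, and only the rNetrin-1 lines are labelled as clones. The passages of a line are taken as repeated samples of that line, and a p-value compares lines and passages, not independently derived clones. In these bulk libraries fewer cells of a type and less RNA per cell cannot be told apart.

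As background, ligands of the family bind pairs of type I and type II receptor kinases, which phosphorylate Smad proteins. Nodal, activins and TGF-beta signal through Smad2 and Smad3, whereas BMPs signal through Smad1, Smad5 and Smad9, and both kinds of Smad act together with Smad4. In mouse embryonic stem cells Nodal signals with its co-receptor Cripto (Tdgf1) and switches on its own antagonists Lefty1 and Lefty2, and BMP4 induces Id genes that help to hold the cells undifferentiated when LIF is present. In fibroblasts TGF-beta is known for driving the production of extracellular matrix.

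The libraries held 38110410 to 52946856 reads on genes. Values are given on the scale of the deposited table, normalised read counts on which 1 read is worth 0.888 to 1.18. The 2 MEF libraries differed far less (a coefficient of variation of 1.9% beyond counting) than the passages of the other lines (9.5 to 11.4%). The 8 fibroblast markers summed to 1205229 to 1226343 in MEF, 8431 to 8477 in pre-iPS and 7369 to 11880 in iPS libraries. Singly they stood in iPS cells at 0.12% (Lum) to 26.4% (Twist2) of their MEF mean. The 7 naive pluripotency markers summed to 130 to 135 in MEF, 15939 to 16491 in pre-iPS and 18289 to 48239 in iPS libraries, and Dppa3 stayed under 10 in both pre-iPS libraries. The pre-iPS and iPS cells can be grown on irradiated MEF. Members higher in MEF stood in iPS cells at 2.07% (Tgfb3) or more of their MEF mean, and the part of any feeder cells in these low levels was not tested. Xist, the X-inactivation transcript, was 16030 to 22076 in pre-iPS cells and 20013 to 21946 in clone 2, where the 4 Y-linked markers stayed under 10. Control iPS and clone 1 had 144 to 317 of Xist and at least 773 of each Y-linked marker, and MEF had both kinds. The lines thus differ in sex-linked transcripts in each comparison below but that of the passages, and the part of this in the results was not tested.

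Promoters were available from RefSeq (GRCm38.p6) for 38 of the 57 members. Those of 4 members on which the comparisons turn are shown as the 250 bases before the start of the gene in RefSeq: Nodal (chr10:61417722-61417971, plus strand), Tdgf1 (chr9:110946159-110946408, minus strand), Tgfb2 (chr1:186705990-186706239, minus strand) and Id3 (chr4:136143572-136143821, plus strand). Capitals mark, on either strand, the Smad box CAGAC, the further Smad-bound motif GGCGCC and the motif TGTNNATT, which is bound by Foxh1, the partner of Smad2. No matches overlap in these 4 promoters. The gene model used below for Id3 starts farther upstream, at 136143497, so its window lies inside that model.
Nodal: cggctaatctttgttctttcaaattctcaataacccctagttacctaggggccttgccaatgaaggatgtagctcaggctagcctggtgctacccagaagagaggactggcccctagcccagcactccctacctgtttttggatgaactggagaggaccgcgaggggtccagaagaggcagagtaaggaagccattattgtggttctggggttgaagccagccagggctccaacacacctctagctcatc
Tdgf1: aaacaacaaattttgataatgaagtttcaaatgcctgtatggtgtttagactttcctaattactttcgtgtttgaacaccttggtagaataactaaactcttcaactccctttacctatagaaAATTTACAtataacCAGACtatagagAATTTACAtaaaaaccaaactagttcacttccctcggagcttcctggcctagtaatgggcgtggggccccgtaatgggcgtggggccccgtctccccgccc
Tgfb2: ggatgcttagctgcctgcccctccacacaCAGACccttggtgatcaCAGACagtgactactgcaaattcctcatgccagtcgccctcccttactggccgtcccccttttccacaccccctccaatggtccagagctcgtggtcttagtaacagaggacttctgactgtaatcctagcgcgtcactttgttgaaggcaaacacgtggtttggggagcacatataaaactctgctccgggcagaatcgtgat
Id3: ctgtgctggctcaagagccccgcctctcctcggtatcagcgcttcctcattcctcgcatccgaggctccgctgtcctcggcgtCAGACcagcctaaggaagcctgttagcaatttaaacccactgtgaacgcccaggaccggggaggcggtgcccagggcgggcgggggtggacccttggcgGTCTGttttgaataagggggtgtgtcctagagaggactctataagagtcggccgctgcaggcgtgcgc
Over all 32851 promoters of this length, 42.2% held CAGAC, 9.59% GGCGCC and 10.9% TGTNNATT. Of the 38 members 18 held CAGAC, 7 GGCGCC and 2 TGTNNATT in any of their promoters. The members have 45 promoters among them and are counted as genes, so these counts and the shares over single promoters differ in unit. The Tdgf1 promoter has 2 matches to TGTNNATT and 1 CAGAC, those of Tgfb2 and Id3 have 2 CAGAC each, and none of these letters stand in the Nodal window. A match is a run of letters and not a measured binding site.

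**Figure D1:**
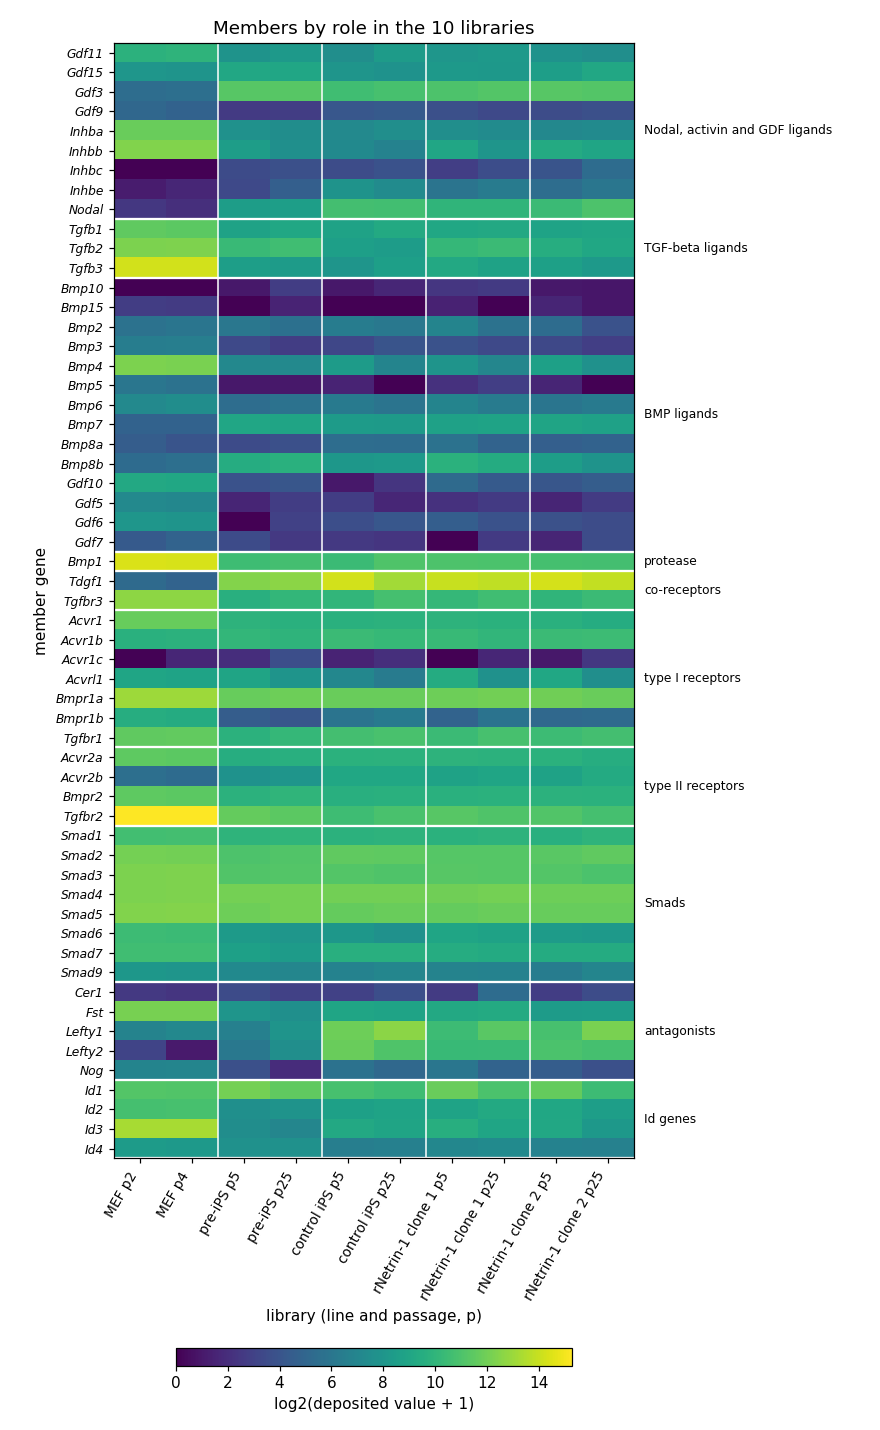
Colour gives log2(deposited value + 1) of the 57 members (rows, by role) in the 10 libraries (columns, by line and passage p). Nodal, Gdf3, Tdgf1, Lefty1 and Lefty2 are low in both MEF libraries and high in the iPS libraries, and Tgfb3, Tgfbr2, Bmp1, Bmp4 and Id3 show the opposite.

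The first question was how the members differ between fibroblasts and iPS cells. MEF had higher levels of the 3 TGF-beta ligands, the activin subunit genes Inhba and Inhbb, Bmp4 and Id3, and lower levels of Nodal, Gdf3, Tdgf1, Lefty1 and Lefty2 of the Nodal branch. Of the 54 members tested 42 were called (adjusted p under 0.05 by limma and an absolute log2 difference of at least 1), 32 higher and 10 lower in MEF. Over all 17075 genes 48.2% were called, 21.6% higher and 26.6% lower. The median log2 difference was 1.21 over the members and -0.09 over all genes, and the median size without sign was 2.40 and 0.96. The MEF and iPS libraries did not overlap for 50 members, and for 80% of all genes.

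In the Nodal branch, Nodal (chromosome 10, 61417972 to 61425338 on the plus strand, GRCm38), the ligand that gives the branch its name, had values of 4.68 and 3.19 in MEF. It stood at 363 and 374 in pre-iPS cells, 1656 and 1630 in control iPS, 1045 and 1012 in clone 1 and 1396 and 2063 in clone 2, passages in ascending order here and in all that follows. The 3 kinds of cell did not overlap. Nodal was lower in MEF than in iPS cells by a log2 difference of -8.19 ± 0.17 (SE, limma, adjusted p = 5.47e-09). The mean of the MEF values was 0.268% of the iPS mean.

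Tdgf1, the Nodal co-receptor Cripto (chromosome 9, 110939603 to 110946158, minus strand), was the most abundant of all members per kilobase of exon in iPS cells, at 6056, and it led in each of the 3 iPS lines. Lefty1 (1986) and Id1 (1955) came next and were close, Lefty1 ahead in the control line (2932 against 1434) and Id1 in clone 1 (2393 against 1179) and clone 2 (2037 against 1846). It stood at 38.6 and 27.6 in MEF, at 5499 and 6299 in pre-iPS, 19806 and 9262 in control iPS, 16454 and 14606 in clone 1 and 20045 and 15107 in clone 2. MEF lay far below all other libraries, with a log2 difference from iPS cells of -8.84 ± 0.26 (limma, adjusted p = 2.08e-08). A pseudogene, Tdgf1-ps1, shares 8.86% of the 50-base windows of Tdgf1, so part of its reads may have been counted elsewhere or dropped.

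Gdf3 (chromosome 6, 122605403 to 122610087, minus strand), a Nodal-like ligand of pluripotent cells, was 42.8 and 47.4 in MEF, 2568 and 2526 in pre-iPS, 1542 and 1822 in control iPS, 2081 and 2346 in clone 1 and 2544 and 2356 in clone 2. Here pre-iPS cells were at the top of the range, and only MEF stood apart, by a log2 difference of -5.50 ± 0.10 (limma, adjusted p = 2.88e-09).

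The Nodal antagonists followed. Lefty2 (chromosome 1, 180893108 to 180899103, plus strand) was 7.97 and 1.13 in MEF, 69.4 and 188 in pre-iPS, 3562 and 2143 in control iPS, 1261 and 1322 in clone 1 and 2028 and 1780 in clone 2. Its log2 difference between MEF and iPS cells was -8.76 ± 0.53 (limma, adjusted p = 8.11e-07), with -9.80 without the MEF library of passage 2 and -7.72 without that of passage 4. Lefty1, its neighbour (chromosome 1, 180935022 to 180938400, plus strand), was 113 and 137 in MEF, 100 and 244 in pre-iPS, 3875 and 6435 in control iPS, 1432 and 2714 in clone 1 and 1824 and 4665 in clone 2. MEF and pre-iPS overlapped for Lefty1, and both lay below every iPS library (MEF against iPS -4.61 ± 0.45, limma, adjusted p = 1.46e-05). The paralogs share 17.9% of the 50-base windows of Lefty1 and 12% of those of Lefty2, and reads from these cannot be assigned with certainty. Cer1, a further Nodal antagonist, was low throughout (4.23 to 11.5 in 9 libraries and 42.1 in clone 1 at passage 25) and was not called in any comparison.

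**Figure D2:**
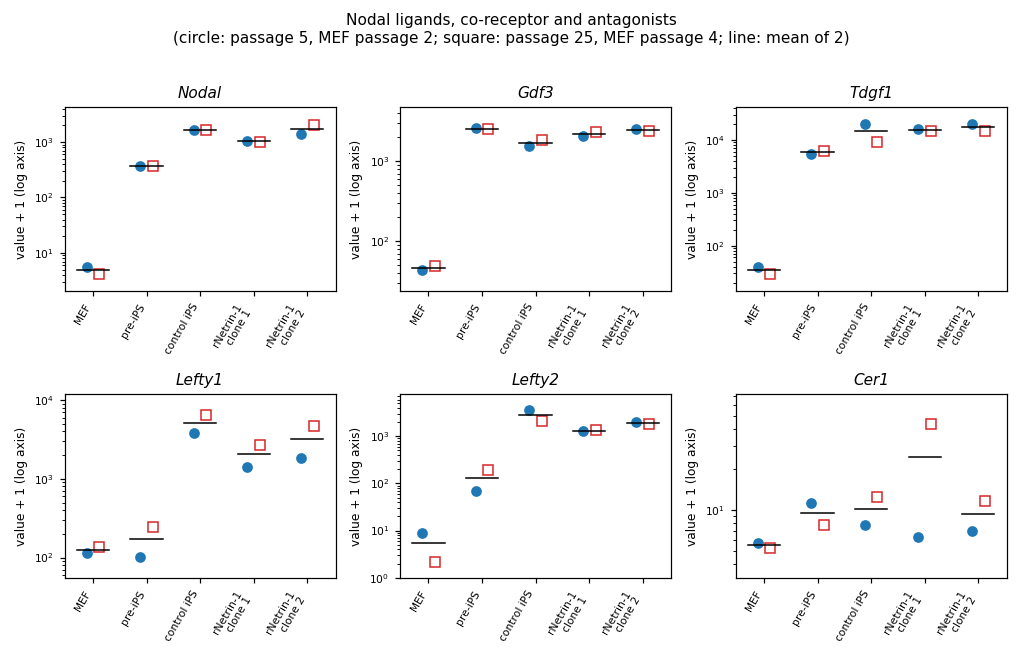
Deposited value + 1 (log axis) of the Nodal-branch ligands Nodal and Gdf3, the co-receptor Tdgf1 and the antagonists Lefty1, Lefty2 and Cer1 in each line, with the earlier passage as a circle, the later as a square and the mean of 2 as a line. Pre-iPS cells lie between MEF and iPS cells for Nodal, Tdgf1 and Lefty2, with MEF for Lefty1, and at the top of the iPS range for Gdf3.

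Among the other ligands of the activin kind, Inhba and Inhbb, which encode the subunits of activins A and B, were high in MEF. Inhba was 3498 and 3588 in MEF against 137 to 190 in the 6 iPS libraries (median 161) and Inhbb 5405 and 5416 against 107 to 657 (median 376). Neither overlapped, with log2 differences of 4.45 ± 0.15 and 4.17 ± 0.32 (limma, adjusted p = 3.91e-08 and 3.26e-06). Inhbe, a further inhibin beta subunit, went the other way, with 1.23 and 2.1 in MEF and 42.6 to 227 in iPS cells (-5.08 ± 0.38, adjusted p = 3.09e-06). Inhbc was listed at 0 in both MEF libraries and averaged 16.3 in the iPS libraries, at least 4.6-fold above the floor of 3 reads in 1 MEF library. Gdf11 and Gdf9 were higher in MEF, by 1.97 and 1.14 on the log2 scale (Gdf9 not without the MEF library of passage 2), and Gdf15 was not called (-0.32). Of the 9 ligands of this group 4 were higher and 4 lower in MEF.

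All 3 TGF-beta ligands were higher in MEF. Tgfb3 was 19586 and 19033 in MEF and 249 to 591 in iPS cells (median 401), a log2 difference of 5.64 ± 0.19 (limma, adjusted p = 4.11e-08) and the largest positive one among the members. Tgfb2 was 4920 and 5208 against 354 to 1391 (2.90 ± 0.13, adjusted p = 1.46e-07), and Tgfb1 2958 and 2809 against 444 to 635 (2.45 ± 0.15, adjusted p = 7.83e-07). Per kilobase of exon the ligands stood in iPS cells at 133 for Tgfb2, 118 for Tgfb3 and 105 for Tgfb1, so that the excess of Tgfb3 was seen in the fibroblasts and not in iPS cells. The receptor Tgfbr2 followed the ligands with 39400 and 40040 in MEF against 1496 to 2568 (4.31 ± 0.13, adjusted p = 2.05e-08), and so did the co-receptor betaglycan (Tgfbr3; 2.34 ± 0.22, adjusted p = 1.36e-05). The type I receptor Tgfbr1 differed less, by 0.92 ± 0.15 (adjusted p = 0.00038), which is under the fold threshold.

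The 12 BMP-type ligands tested were divided, with 8 higher and 2 lower in MEF. Bmp4 was 4891 and 4776 in MEF, 140 and 148 in pre-iPS, 329 and 118 in control iPS, 239 and 127 in clone 1 and 418 and 213 in clone 2, so that MEF exceeded iPS cells by a log2 difference of 4.47 ± 0.41 (limma, adjusted p = 9.59e-06). Gdf10 was 606 and 546 in MEF against 0.964 to 38.2 in iPS cells (5.58 ± 0.41, adjusted p = 2.46e-06). Gdf5 was 143 and 135 against 1.98 to 5.8 (4.89 ± 0.47, adjusted p = 1.42e-05), and Bmp5 was 62.4 and 53.9 against 0 to 6.16 (4.52 ± 0.54, adjusted p = 5.65e-05). Gdf5 and Bmp5, which are both known from the developing skeleton, share 39.2% and 46% of their 50-base windows with other transcripts and are uncertain to that extent. Gdf6, Bmp3, Gdf7 and Bmp6 were the other 4 higher ligands, with log2 differences of 4.05, 3.08, 2.50 and 1.09, and without the MEF library of passage 4 Gdf7 and Bmp6 were no longer called.

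The 2 lower ligands were Bmp7 and Bmp8b. Bmp7 was 27.3 and 27.4 in MEF and 326 to 496 in iPS cells (-3.86 ± 0.13, limma, adjusted p = 3.34e-08), and Bmp8b, known from germ cells, was 40.5 and 46.4 against 229 to 854 (-3.17 ± 0.19, adjusted p = 8.66e-07). Per kilobase of exon Bmp4 led in MEF at 2150, with Gdf10 next at 111, whereas in iPS cells Bmp8b at 116, Bmp4 at 107 and Bmp7 at 104 were close together. By line Bmp4 led in control iPS (99.3) and clone 2 (140), and Bmp8b in clone 1 (198). Bmp1, the protease that cleaves procollagen and the BMP antagonist chordin, was 21522 and 20985 in MEF against 1385 to 2144 (3.54 ± 0.14, adjusted p = 8.97e-08).

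Receptors for BMP and activin were mostly higher in MEF. Of the 6 type I receptors tested Bmpr1b (728 and 664 in MEF against 28.4 to 79.3 in iPS cells), Acvr1 and Bmpr1a were called higher, with log2 differences of 3.88, 2.01 and 1.17 (Bmpr1a not after quantile normalization), and none lower. Bmpr1a, the main type I receptor for BMP4, led in iPS cells at 595 per kilobase of exon, followed by Acvr1b at 290 and Tgfbr1 at 253. Among the 4 type II receptors Tgfbr2, Acvr2a and Bmpr2 were higher and Acvr2b was lower. Acvr2b, through which Nodal signals, was 47 and 39.2 in MEF, 222 and 252 in pre-iPS and 440 to 646 in iPS cells without overlap (MEF against iPS -3.58 ± 0.17, limma, adjusted p = 1.91e-07), while Acvr2a, which binds the same ligands, was higher in MEF by 1.70 ± 0.09 (adjusted p = 3.35e-07).

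The Smads varied far less than the ligands. Smad4, the common partner, was 5040 and 5074 in MEF and 3811 to 4296 in iPS cells, a log2 difference of 0.33 ± 0.05. Smad2, Smad5 and Smad1 differed by 0.65, 0.69 and 0.84, all at an adjusted p under 0.05 (limma) and under the fold threshold, and Smad3 and Smad9 were called higher by 1.14 and 1.24 (Smad3 not after quantile normalization). The inhibitory Smads, which are feedback targets of the pathway, were called higher too. Smad6, the target of BMP signals, was 1405 and 1382 in MEF against 214 to 506 (2.06 ± 0.14, adjusted p = 1.51e-06). Smad7 was 1576 and 1525 against 644 to 808 (1.12 ± 0.10, adjusted p = 9.15e-06), and after quantile normalization it fell just under the fold threshold, at 0.97.

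Of the 4 Id genes, which encode inhibitors of basic helix-loop-helix factors and are direct BMP targets, 3 were higher in MEF. Id3 (chromosome 4, 136143497 to 136145755, plus strand) was 10188 and 10150 in MEF against 287 to 759 in iPS cells (4.29 ± 0.27, limma, adjusted p = 8.95e-07). Id2 was 1773 and 1801 against 384 to 613 (1.89 ± 0.17) and Id4 332 and 304 against 93.8 to 161 (1.47 ± 0.15). Id1 was 2312 and 2282, inside the iPS range of 1400 to 3563, and did not pass (0.12 ± 0.33, adjusted p = 0.753), with a sign that turned under quantile normalization (-0.10). Of the antagonists outside the Nodal branch follistatin (Fst), which binds activins, was 4501 and 4625 against 339 to 659 (3.27 ± 0.11, adjusted p = 4.73e-08), and Noggin (Nog), which binds BMPs, 120 and 124 against 12.5 to 62.1 (1.94 ± 0.50, adjusted p = 0.00636).

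**Figure D3:**
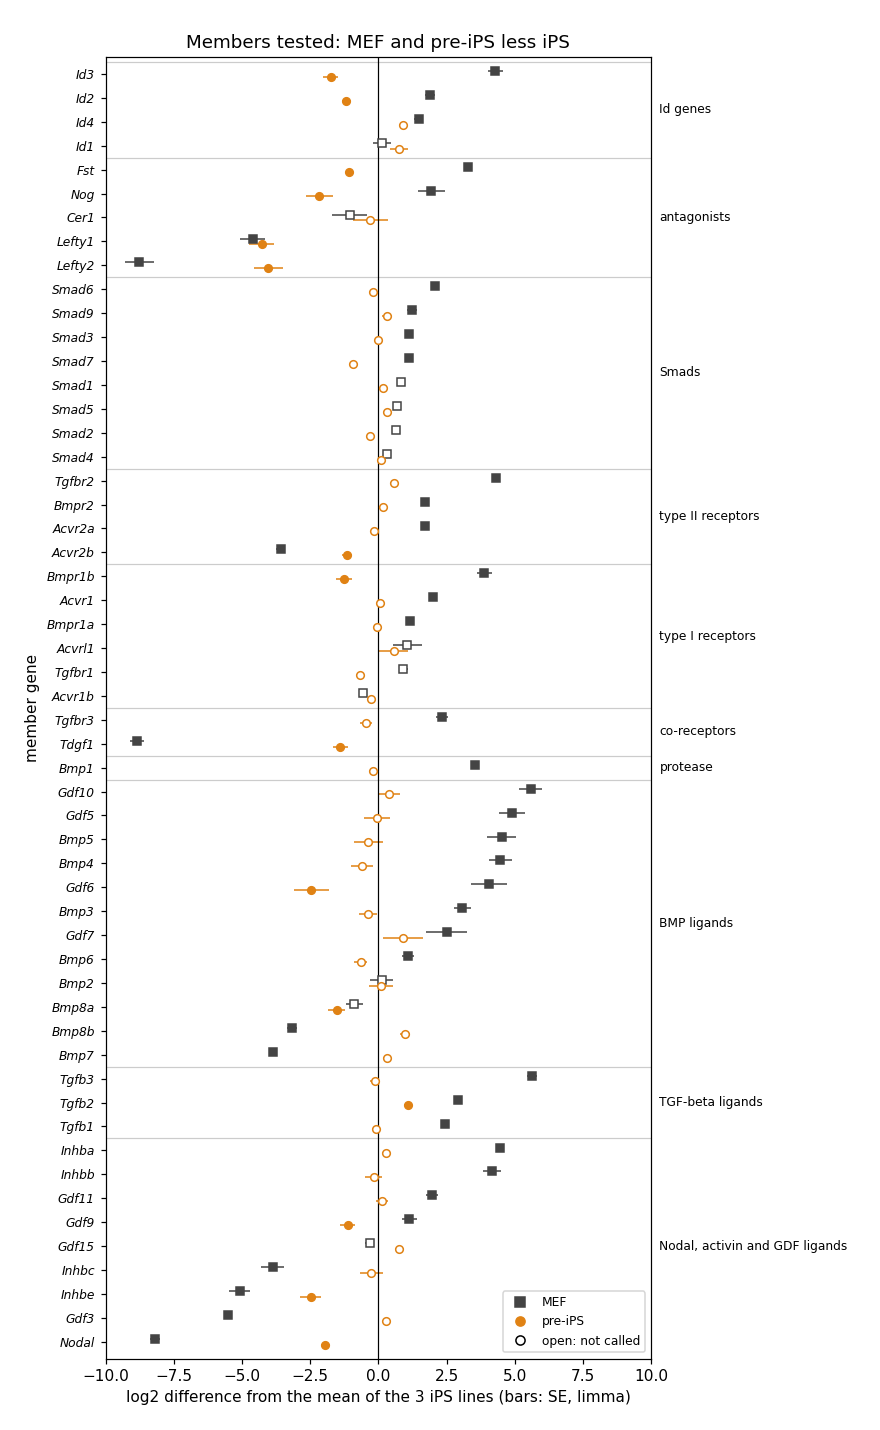
Log2 difference (x axis, with SE from limma) of MEF (squares) and pre-iPS cells (circles) from the mean of the 3 iPS lines for the 54 members tested, by role. Filled symbols are called: MEF differ in both directions up to -8.84 and 5.64, while pre-iPS cells have 14 filled circles below 0 and 1 above.

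The second question was where the pre-iPS line, which stopped short of pluripotency, differs from the iPS lines. Nodal, its co-receptor Tdgf1 and the antagonists Lefty1 and Lefty2 were lower there, together with Id2 and Id3, whereas Gdf3 (0.29) and Cer1 (-0.29) of the Nodal branch were not called. None of the 8 Smads was called, with Smad7 closest to the fold threshold (-0.92), and of the 10 type I and type II receptors tested only Bmpr1b and Acvr2b were. Of the 54 members 15 were called, 14 lower and 1 higher. Over all genes 16.3% were called, 11.6% lower and 4.71% higher. The median log2 difference of the members was -0.18 against 0.00 over all genes, and the libraries did not overlap for 23 members (42.6%) and for 41.8% of all genes.

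Lefty1 and Lefty2 were the most reduced, with pre-iPS values given above that reached at most 244 and 188 where the lowest iPS library had 1432 and 1261. The log2 differences were -4.28 ± 0.45 and -4.04 ± 0.53 (limma, adjusted p = 0.000179 and 0.000622). The means of the pre-iPS values were 4.93% and 6.39% of the iPS means. Nodal was lower by -1.94 ± 0.17 (adjusted p = 8.02e-05) and Tdgf1 by -1.39 ± 0.26 (adjusted p = 0.00361). Their mean values in pre-iPS cells were 25.1% and 37.1% of the iPS means. None of these 4 overlapped with the iPS libraries, and an exact two-sided permutation test of each gave p = 0.0357, the smallest that 2 against 6 libraries allow. That test takes the libraries as independent, though each line gave 2 of them. It thus adds nothing to the lack of overlap, which 41.8% of all genes showed. These 4 members stayed called in every alternative tried. The sizes of the Lefty differences rest on the 2 pre-iPS libraries: without that of passage 5 they were -3.64 for Lefty1 and -3.32 for Lefty2, and without that of passage 25 they were -4.92 and -4.75. Gdf3, by contrast, stood at 120% of the iPS mean (0.29 ± 0.10, limma, adjusted p = 0.0442) and overlapped with the iPS libraries.

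Foxh1, the transcription factor through which Nodal acts with Smad2, is not a member but was on the list of other pathway genes. It was 70.4 and 65.3 in pre-iPS cells, 9.2 and 3.24 in MEF and 710 to 1442 in iPS cells, with a log2 difference of pre-iPS from iPS cells of -3.95 ± 0.32 (limma, adjusted p = 4.5e-05). Both pre-iPS libraries lay below all iPS libraries, as they did for Nodal, Lefty1 and Lefty2. Eomes, which Nodal also regulates, was 224 and 134 against 137 to 364 and did not pass (-0.46, adjusted p = 0.486).

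The other lower members came from several roles. Inhbe was 9.18 and 24 against 42.6 to 227 (-2.48 ± 0.38, limma, adjusted p = 0.0014), with -1.83 and -3.12 without the pre-iPS library of passage 5 and of passage 25. Gdf6 was 0 and 6.72 against 10.7 to 23.1 (-2.46 ± 0.65, adjusted p = 0.0176), a difference of a few reads that fell to -0.98 and was lost without the pre-iPS library of passage 5, was -3.93 without that of passage 25, and was lost after quantile normalization (-1.61, adjusted p = 0.0649). Noggin was 12.2 and 2.88 against 12.5 to 62.1 (-2.16 ± 0.50, adjusted p = 0.0098) and was lost without the pre-iPS library of passage 25 (-1.27), with -3.05 without that of passage 5. Bmp8a, Bmpr1b, Acvr2b, Gdf9 and Fst were lower by -1.52, -1.26, -1.15, -1.13 and -1.09, all without overlap. Gdf9 was lost without the pre-iPS library of passage 5, and Bmpr1b and Fst without that of passage 25. Quantile normalization ended the calls of Bmp8a, Bmpr1b and Gdf9, and a pseudocount of 5 that of Gdf9. Bmpr1b is the second type I receptor for BMPs, and pre-iPS cells kept 3446 and 3838 of the first, Bmpr1a, against 3524 to 4112 in iPS cells.

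The single higher member was Tgfb2 (chromosome 1, 186622792 to 186705989, minus strand), at 1313 and 1555 in pre-iPS cells, 401 and 354 in control iPS, 1184 and 1391 in clone 1 and 733 and 556 in clone 2. It passed (1.08 ± 0.13, limma, adjusted p = 0.000366), but clone 1 overlapped with pre-iPS cells, and without the pre-iPS library of passage 25 the difference was 0.96. Lrrc32, which anchors latent TGF-beta at the cell surface, showed a larger difference among the listed pathway genes, with 6781 and 6530 in pre-iPS and 78 to 361 in iPS cells (4.94 ± 0.27, adjusted p = 6.21e-06). The TGF-beta co-receptor endoglin (Eng) was 4961 and 4746 against 1134 to 3105 (1.17 ± 0.06, adjusted p = 5.85e-06). Tgfbr2 was above all iPS libraries at 3222 and 2736, though only by 0.56 ± 0.13 (adjusted p = 0.0082). The type I receptor Tgfbr1 went the other way and lay below all iPS libraries. It was 891 and 1169 against 1367 to 1942 (-0.68 ± 0.15, limma, adjusted p = 0.00688), under the fold threshold. Thbs1, which activates latent TGF-beta, was also below every iPS library, at 1327 and 1232 against 1845 to 4177.

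The Id genes split in pre-iPS cells. Id3 was 181 and 130 against 287 to 759 in iPS cells (-1.75 ± 0.27, limma, adjusted p = 0.00124) and Id2 195 and 231 against 384 to 613 (-1.17 ± 0.17, adjusted p = 0.00088). Id4 went the other way with 211 and 212 against 93.8 to 161 (0.89 ± 0.15, adjusted p = 0.00192), which is under the fold threshold as deposited and past it after quantile normalization (1.13). Id1 was 4408 and 2968 against 1400 to 3563, overlapped and did not pass (0.77 ± 0.33, adjusted p = 0.0962). Per kilobase of exon Id1 was the leading Id gene in iPS and in pre-iPS cells (1955 and 3179), while Id3 led in MEF at 5678.

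Smad7 was 419 and 340 in pre-iPS cells against 644 to 808, below every iPS library by -0.92 ± 0.10 (limma, adjusted p = 0.000236). Without the pre-iPS library of passage 5 it passed the fold threshold at -1.07. Smad6 was 325 and 261 against 214 to 506 (-0.19 ± 0.14, adjusted p = 0.31) and overlapped. The 6 other Smads differed by at most 0.32 in size (-0.32 for Smad2, 0.32 for Smad9), and none of them was called. Smad2 (adjusted p = 0.00447), Smad5 (0.30, adjusted p = 0.0129) and Smad4 (0.11, adjusted p = 0.131) did not overlap with the iPS libraries. Bmp4, at 140 and 148 against 118 to 418, did not pass either (-0.59 ± 0.41, adjusted p = 0.278).

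**Figure D4:**
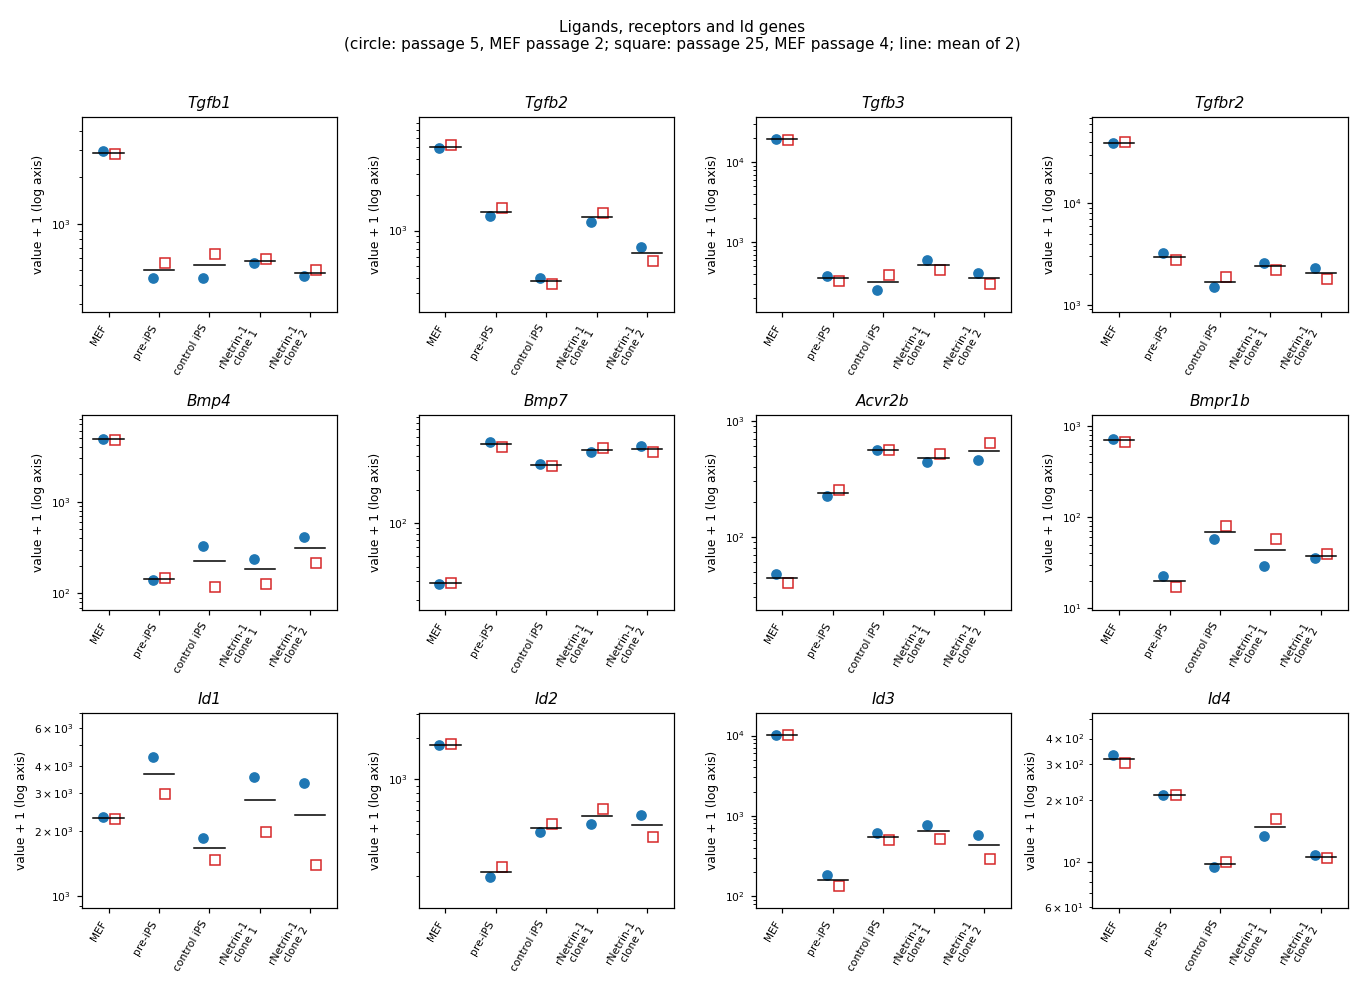
Deposited value + 1 (log axis) of the TGF-beta ligands, Tgfbr2, Bmp4, Bmp7, Acvr2b, Bmpr1b and the 4 Id genes in each line, with the earlier passage as a circle, the later as a square and the mean of 2 as a line. MEF are highest for the TGF-beta ligands, Tgfbr2, Bmp4, Bmpr1b, Id2 and Id3 and lowest for Bmp7 and Acvr2b, and pre-iPS cells are lowest for Id2, Id3 and Bmpr1b.

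Set directly against pre-iPS cells, MEF differed in 40 of the 54 members, 30 higher and 10 lower (43.2% of all genes were called, 20.9% higher and 22.4% lower). This comparison shares the MEF libraries with the one against iPS cells and the pre-iPS libraries with the one above. The largest positive differences were those of Gdf6 (6.51 ± 0.80, limma, adjusted p = 9.76e-05), Id3 (6.05 ± 0.33, adjusted p = 7e-07), Tgfb3 (5.76 ± 0.23), Gdf10 (5.20 ± 0.50) and Bmpr1b (5.14 ± 0.35). Gdf6 had 0 and 7 reads in pre-iPS cells and stood at 5.04 without the library of passage 5 and at 7.99 without that of passage 25. At the other end stood Tdgf1 (-7.45 ± 0.32), Nodal (-6.24 ± 0.21), Gdf3 (-5.79 ± 0.12), Lefty2 (-4.72 ± 0.65) and Bmp7 (-4.17 ± 0.15). The value of Lefty2 was -5.44 and -4.01 without the pre-iPS library of passage 5 and of passage 25, and -5.76 and -3.69 without the MEF library of passage 2 and of passage 4. The pre-iPS line thus had Nodal, its co-receptor and Lefty2 above the fibroblast level. Lefty1 and Cer1 of the branch were not called. Lefty1 had overlapping libraries (-0.32 ± 0.55, limma, adjusted p = 0.618), and its sign turned without the pre-iPS library of passage 25 (0.32). Cer1, low in both lines, differed by -0.76 ± 0.79 (adjusted p = 0.412). The inhibitory Smads, Smad6 and Smad7, were higher in MEF by 2.25 and 2.03, the BMP target Id2 by 3.07 and the ligand Bmp4 by 5.06. Id1 and Id4 were not called (-0.65 and 0.58).

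A list of 59 other genes of the pathway was examined beside the members, of which 58 were in the table and 56 passed the filter on low values. In MEF 36 of the 56 were higher and 9 lower than in iPS cells (80.4% called, against 48.2% of all genes). In pre-iPS cells 2 were higher and 9 lower, or 3.57% and 16.1%, against 4.71% and 11.6% of all genes. The 3 largest positive differences in MEF were those of Thbs1, which activates latent TGF-beta (7.41 ± 0.17), and of the collagen genes Col1a1 and Col1a2 (7.27 ± 0.19 and 6.67 ± 0.12), which are TGF-beta targets and also products of any fibroblast. Foxh1 (-7.33 ± 0.32), Eomes (-5.03 ± 0.49) and Cfc1, a relative of Tdgf1 (-4.68 ± 0.40), were the most reduced (limma, all at an adjusted p of at most 1.43e-05). All 16 target genes on the list were called in MEF, 13 higher and 3 lower, where 48.2% of all genes were called. In pre-iPS cells 5 of the 16 targets were called, all lower (31.2%, against 11.6% of all genes called lower). Foxh1 and the proprotein convertase Pcsk5 (-2.49 ± 0.44) were also lower there.

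The third question was whether iPS lines obtained with rNetrin-1 differ from the control line. Most members did not pass, and the calls concerned Tgfb2, Inhbb and Gdf10, each higher in the rNetrin-1-derived lines. These were 3 of the 54 members, where 2.11% of all genes were called, 0.99% higher and 1.12% lower. A fit that paired the libraries by passage, given below, called 6 members and 3.3% of all genes, with Lefty1 and Inhbe lower. The libraries of the 2 arms did not overlap for 15 members, or 27.8%, and for 21.3% of all genes. There is 1 control line, so a property of that line and the effect of the treatment cannot be told apart.

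Tgfb2 was higher in both clones than in the control, with the values given above, by a log2 difference of 1.26 ± 0.14 (limma, adjusted p = 0.00314) that passed in every alternative, from 1.16 to 1.36 when each library was left out. Clone 1 alone exceeded the control by 1.77 ± 0.16 (adjusted p = 0.00252) and clone 2 by 0.76 ± 0.16 (adjusted p = 0.0366), so that the clones themselves differed by -1.01 ± 0.16 (clone 2 less clone 1, adjusted p = 0.0274). Inhbb was 152 and 107 in the control, 536 and 250 in clone 1 and 657 and 501 in clone 2 (1.84 ± 0.34, adjusted p = 0.0243). Gdf10 was 0.964 and 4.18 in the control, 38.2 and 19.5 in clone 1 and 15.9 and 21.5 in clone 2 (2.88 ± 0.43, adjusted p = 0.011).

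Every rNetrin-1-derived library was above both control libraries for these 3 genes. The control had 1 and 4 reads of Gdf10, so its fold depends on the pseudocount (1.90 with 5 instead of 1). It was 3.58 without the control library of passage 25, and its call was lost without that of passage 5 (2.18, adjusted p = 0.0649) and when only the lines compared were fitted (0.07). Inhbb was lost in that fit (adjusted p = 0.0747) and without either control library (0.0821 and 0.171), the clone 2 library of passage 5 (0.0714) or either MEF library (0.057 and 0.0571). In a fit without MEF that took the passage as a replicate block, 6 members were called where 3.3% of all genes were: these 3, Acvrl1 higher (1.75 ± 0.22, limma, adjusted p = 0.00542), and Lefty1 (-1.06 ± 0.13, adjusted p = 0.00548) and Inhbe (-1.68 ± 0.35, adjusted p = 0.0317) lower. Without the block Lefty1 had the same difference with an SE of 0.47 (adjusted p = 0.29), and Acvrl1 with an SE of 0.55 (adjusted p = 0.139). Inhbe had the same difference with an SE of 0.41 (adjusted p = 0.0622), and every rNetrin-1-derived library was below both control libraries. Inhbe was also called with a pseudocount of 5, after quantile normalization and by edgeR on the recovered reads (-1.69, adjusted p = 0.0249).

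No other member of the Nodal branch was called. Nodal differed by -0.31 ± 0.18 (limma, adjusted p = 0.435), Lefty2 by -0.82 ± 0.56 (adjusted p = 0.518), with all 4 clone libraries below both of the control, and Tdgf1 by 0.28 ± 0.28 (adjusted p = 0.681), whereas Gdf3 was above both control libraries in all 4 of the clones (0.47 ± 0.10, adjusted p = 0.0436), under the fold threshold. Id1 to Id4 differed by 0.54, 0.17, -0.11 and 0.36, none at an adjusted p under 0.05, and Smad6 by 0.69 ± 0.15 (adjusted p = 0.041). Eng was the only called gene among the 56 others of the pathway, with 1179 and 1134 in the control, 2948 and 3105 in clone 1 and 2811 and 2973 in clone 2 (1.35 ± 0.07, adjusted p = 0.000113).

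Between the clones, Bmp8b and Tgfb2 were lower in clone 2 (2 of 54 members, where 0.966% of all genes were called and 0.252% called lower). Bmp8b was 854 and 685 in clone 1, 371 and 229 in clone 2 and 275 and 290 in the control, so that clone 1 stood apart (clone 2 less clone 1 -1.39 ± 0.24, limma, adjusted p = 0.0343). Its paralog Bmp8a shares 8.74% of its own windows with other genes, Bmp8b among them. Neither call held when only the clones were fitted. Leaving out 1 library ended the call of Bmp8b except where it was that of clone 2 at passage 5, and ended that of Tgfb2 for either library of clone 1 or of MEF and for clone 2 at passage 25. The clones also differ in Xist and the Y-linked markers, as given above.

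The last comparison asked whether the members drift in culture, by setting passage 25 against passage 5 over the 4 pre-iPS and iPS lines with the line as a block. Lefty1 rose and Acvrl1 and Noggin fell (3 of 54 members, where 1.69% of all genes were called, 0.398% higher and 1.29% lower). Lefty1 increased in all 4 lines, by 1.28 in pre-iPS, 0.73 in control iPS, 0.92 in clone 1 and 1.35 in clone 2 on the log2 scale (together 1.07 ± 0.11, limma, adjusted p = 0.00332). Without either library of clone 2 it stood at 0.98, under the fold threshold. Lefty2 (0.14 ± 0.30, adjusted p = 0.788) and Nodal (0.13 ± 0.11, adjusted p = 0.468) did not pass.

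Acvrl1, a type I receptor for BMP9 and BMP10 known from blood vessels, was 478 and 244 in pre-iPS, 132 and 80.3 in control iPS, 679 and 211 in clone 1 and 541 and 186 in clone 2. It decreased in 4 of 4 lines (-1.22 ± 0.18, limma, adjusted p = 0.00976), and the call was lost without either library of clone 1 (adjusted p = 0.0692 and 0.0632). Noggin was lower at passage 25 in 4 of 4 lines (-1.07 ± 0.27, adjusted p = 0.0467), at 2.88 to 62.1 over all 8 libraries, and its call was lost in most alternatives, among them every fit that left out 1 of the 8 libraries. Id1 (-0.75 ± 0.14, adjusted p = 0.0188), Id3 (-0.58 ± 0.13, adjusted p = 0.0346) and Inhbb (-0.72 ± 0.14, adjusted p = 0.0255) were lower in 4 of 4 lines, and Tgfbr1 and Tgfbr3 higher (0.32 ± 0.06 and 0.53 ± 0.07), all under the fold threshold. Acta2 and Tagln, TGF-beta targets of contractile cells, and Eomes were the 3 called of the 56 other genes, by -1.40, -1.33 and -1.02, and were singled out after their values were seen. Across the same passages 3 of the 8 fibroblast markers were higher at passage 25 in 4 of 4 lines (Thy1, Pdgfrb and Twist2) and 1 was lower in 4 of 4 (Lum). Of the 5 macrophage markers Cd68 and Csf1r were lower in 4 of 4 lines, while Ptprc and Tyrobp stayed under 10 in all 8 libraries. Of the 5 trophoblast markers 4 were lower in 4 of 4 lines (Cdx2, Elf5, Hand1 and Ascl2), and of the 5 primitive endoderm markers Sox17 was lower and Dab2 higher in 4 of 4. Of the 7 naive pluripotency markers 0 were higher and 0 lower in 4 of 4 lines. The share of all genes that moved one way in 4 of 4 lines is not given here, so no excess can be read from these counts. The part of other cell types in the passage differences was not tested.

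**Figure D5:**
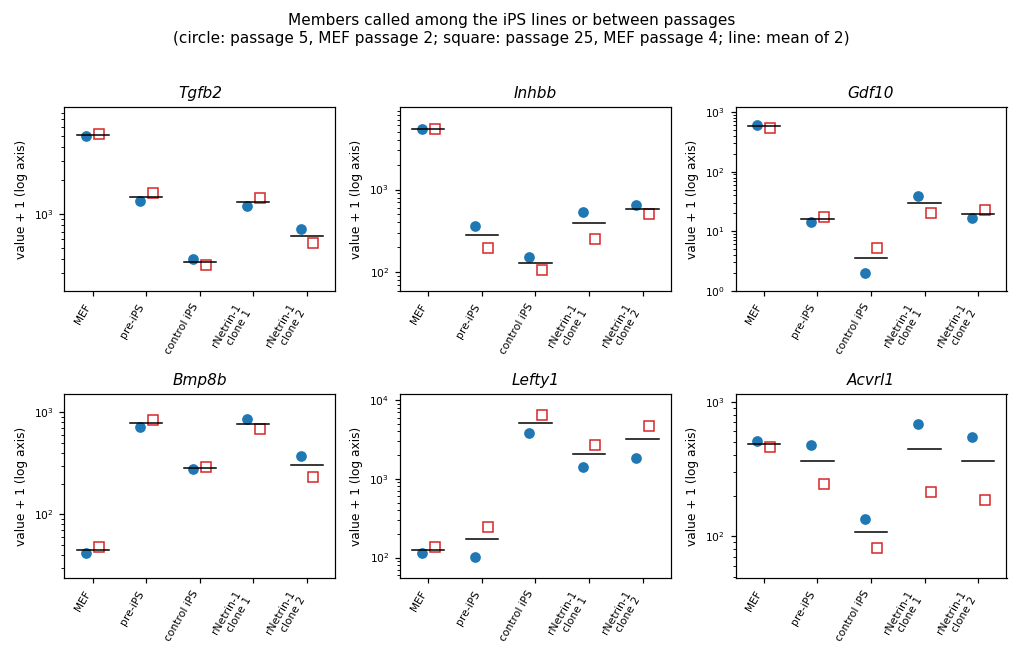
Deposited value + 1 (log axis) of 6 members called among the iPS lines or between passages, with the earlier passage as a circle, the later as a square and the mean of 2 as a line. Tgfb2, Inhbb and Gdf10 are lowest in control iPS, Bmp8b is higher in clone 1 than in clone 2, and in the 4 pre-iPS and iPS lines the square lies above the circle for Lefty1 and below it for Acvrl1.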

How the data were processed

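Poly(A) RNA of 10 libraries was read as 50-nt single reads, all pooled on a single lane. Per the submitters' processing notes the tools were CASAVA 1.8.2, FastQC, TopHat2 2.0.8b, HTSeq 0.5.3p9 and edgeR on mm10, and the annotation is not given in the sources used here. The authors deposited 1 table of normalised signal (edgeR pseudo-counts), read counts adjusted for library size. The totals of its columns are not equal, at 56073322 and 55886953 in MEF and 39745507 to 41892877 in the pre-iPS and iPS libraries. Whole reads were recovered from that table for 100% of values (tolerance 0.1 of a read), which gave the depth. The spread beyond counting between the 2 libraries of a line was 9.5 to 11.4% outside MEF, and counting error exceeds it for members of low read number. In MEF that spread was only 1.9%, so counting error exceeds it for members with many more reads too.

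Tests were run on the 17075 genes that reached 10 in 2 or more libraries, with limma 3.58.1 in R 4.3.3 on log2(value + 1), with 1 mean per line over all 10 libraries and Benjamini-Hochberg adjustment over all genes. Differences are on this scale, which understates changes of low genes. Passages were compared over 8 libraries with the line as a block. For single members an exact two-sided permutation test was added, whose smallest possible p is 0.0357 (2 against 6 libraries) or 0.0667 (2 against 4). It takes libraries and not lines as the unit, so it does not measure the spread between lines.

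Alternatives were pseudocounts of 5 and 0.5, no filter, a mean of at least 50, quantile and median-ratio scaling, the adjusted p alone, only the lines compared, passage as a replicate block, each library left out and, added after seeing the data, edgeR 4.0.16 (quasi-likelihood, TMM) on the recovered reads. Deviations from line means of same-numbered passages correlated at 0.235 to 0.504 in 6 pairs of lines, so the passages pair the libraries. The main fits between lines did not include the passage. Only the fit with the passage as a replicate block did, and it could not be run for MEF.

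Full statistics were given for Nodal, Lefty1, Lefty2, Tdgf1, Gdf3, Bmp4, Id1 to Id4, Smad6 and Smad7 and for the 5 higher and 5 lower called members with the largest differences. The members and lists were chosen with earlier results of these data known. Coordinates, exon lengths and shared 50-base windows are from GENCODE M21 (GRCm38), which need not be the annotation on which the authors counted. The strand setting is not given in the sources used here. 1 gene of the list of other pathway genes is counted but not reported here.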

Additional observations from a re-analysis of the deposited data

Results flagged for a closer look

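Among the 6 iPS libraries the Nodal antagonist Cer1 stood at 42.1 in clone 1 at passage 25 and at 5.32 to 11.5 in the others, and the inhibin subunit Inhbc stood at 41.2 in clone 2 at passage 25 and at 6.21 to 14.9 in the others. Each is a single library far from the rest of its group. The limit used was set so that about 1 in 20 groups of independent samples pass it by chance. These 6 libraries are 3 lines at 2 passages and not independent samples. The limit was applied gene by gene across the members, so a few are expected to pass it by chance. Cer1 and Inhbc may thus be no more than chance gives. The effects of the 2 rNetrin-1-derived clones against the control differed for Bmp8b by -1.39 and for Tgfb2 by -1.01 on the log2 scale (clone 2 less clone 1, limma, adjusted p = 0.0343 and 0.0274).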

How the results depend on the processing

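The number of members called was within 1.5 times that reported in 19 of 19 alternatives for each comparison with MEF, 19 of 20 for pre-iPS against iPS cells, 16 of 20 for rNetrin-1-derived against control, 12 of 17 for the passages and 9 of 20 for clone 2 against clone 1. On the adjusted p alone it was 24 for pre-iPS against iPS cells, 5 for rNetrin-1-derived against control and 8 for the passages. With only the lines compared it was 1 for rNetrin-1-derived against control and 0 for clone 2 against clone 1, and edgeR on the recovered reads called 1 for the clones. Leaving out 1 library gave 11 to 16 for pre-iPS against iPS, 40 to 44 for MEF against iPS, 40 to 41 for MEF against pre-iPS, 1 to 4 for rNetrin-1-derived against control, 0 to 3 for the clones and 1 to 3 for the passages. With the passage as a replicate block 6 members were called for rNetrin-1-derived against control, 15 of the same 15 for pre-iPS against iPS cells and 2 of the same 2 for the clones, and the block changed no other call. No paired analysis was possible because the MEF passages have other numbers for the 2 comparisons with MEF. Over all genes rNetrin-1-derived against control had 360 calls, 134 with only the lines compared, 564 with the block and 697 on the adjusted p alone. Of the single members named, Id1 between MEF and iPS cells turned to -0.10 under quantile normalization and ran from -0.09 to 0.33 with 1 library left out, and Lefty1 between MEF and pre-iPS cells ran from -0.96 to 0.32. Neither was called. The causes were not tested. Members with a few reads, such as Gdf6, Gdf10 and Noggin in single lines, are limited by depth.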
